A study of Mus musculus with 2 samples.

Results

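The genes described here are the 48 subunits of the glutamate, GABA and glycine receptors, of 31053 genes counted. They were chosen by symbol alone: the AMPA (Gria), NMDA (Grin), kainate (Grik) and metabotropic (Grm) glutamate receptors, the GABA-A (Gabra, Gabrb, Gabrg, Gabrd, Gabrq, Gabrr) and GABA-B (Gabbr) receptors, and the glycine receptors (Glra, Glrb). The cells came from MM13 mouse embryonic stem cells that had been differentiated for 9 days either in retinoic acid (RA), a vitamin A derivative that gives neural cells a spinal identity, or in RA with the growth factor BMP4, a dorsalising signal made by the roof plate (RA+BMP4). The labels name no other treatment and no untreated control, and do not say whether the line is 1 clone. Each condition was 1 library of dissociated, dead-cell-depleted cells, so neither condition had a replicate, no test between conditions was possible, and no p-value is given. Every interval and detection limit below is a 95% interval or a limit of 3 counts that covers counting error only.

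Ionotropic receptors are channels built from several subunits, and the subunits decide what the channel does. AMPA and kainate receptors carry fast excitation, and the AMPA subunit Gria2 makes the channel largely impermeable to calcium. NMDA receptors need Grin1 together with a GluN2 subunit (Grin2a to Grin2d), and Grin2b is the GluN2 form best known from the embryonic nervous system while Grin2a is best known for its later rise. GABA-A receptors usually join α, β and γ subunits, glycine receptors join α subunits with Glrb, and both conduct chloride. The metabotropic glutamate receptors and the GABA-B receptor, an obligatory pair of Gabbr1 and Gabbr2, signal through G proteins.

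After filtering, 5900 RA and 8352 RA+BMP4 cells were kept, with median depths of 14196 and 10465 UMIs. Of these, 2878 (48.8%) and 3418 (40.9%) lay in neuron-like clusters, with median depths of 12471 and 9526 UMIs. The median mitochondrial UMI share was 6.06% in RA and 4.22% in RA+BMP4, and 6.35% and 4.16% in neuron-like cells. This difference cannot be told apart from the condition, and its part in the comparisons of the libraries was not tested. The libraries shared 43 barcodes, 21 of them among kept cells. Pan-neuronal marker genes summed to 5321 and 4915 counts per 1000000 UMIs (CPM) in neuron-like cells against 323 and 339 CPM in the other cells. A cluster took a subtype name from marker genes, and neither these nor the 48 subunits were used to form the clusters. Of the neuron-like cells, 7 groups had at least 50 cells in each library. The dorsal interneuron classes were dI1-like (172 RA and 1762 RA+BMP4 cells; Barhl1, Barhl2, Lhx9), dI2-like (124 and 605; Foxd3, Lhx1), dI4/dILA-like (575 and 270; Pax2, Slc32a1) and dI5/dILB-like (603 and 140; Tlx3, Lmx1b). There were also newborn neurons (314 and 358; Neurog and Neurod4 genes) and a group with Syt4 and Sst among its leading genes that met only pan-neuronal markers, called pan-neuronal-like here (508 and 202). In this pan-neuronal-like group Slc32a1 was at 47.5 and 32.0 CPM, below only the dI4/dILA-like neurons, and Slc17a6 at 18.7 and 19.4 CPM. The last group, with Pou4f1 and Pou4f2 among its leading genes (582 and 81 cells), is called by those genes because its markers were best matched by the dI3 class while Isl1, which defines dI3 neurons, did not pass the marker rule over both libraries together (8.4 in RA and 110 CPM in RA+BMP4). Isl1 was at 12.4 in RA and 149 CPM in RA+BMP4 in the dI5/dILB-like group too, so dI3 and dI5 neurons cannot be told apart there by this marker in RA+BMP4, and that name rests on Tlx3 and Lmx1b. The libraries held different mixtures of these groups and of the clusters inside the dI1-like and roof plate-like classes.

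Receptor subunits made up 595 CPM of the RA neuron-like UMIs and 765 CPM of those in RA+BMP4, against 144 and 213 CPM in all other cells. In bulk sums of this kind, more cells with a transcript and more transcript per cell cannot be told apart. AMPA subunits took the largest part, at 233 in RA and 332 CPM in RA+BMP4. GABA-B subunits followed at 102 and 117 CPM, then GABA-A at 93.1 and 96.7, kainate at 74.2 and 84.0, NMDA at 55.8 and 85.7, glycine at 25.1 and 32.0 and metabotropic glutamate receptors at 12.2 and 17.6 CPM. The values are tags from the 3′ end, 1 per captured molecule, and were not divided by gene length, so levels of different genes are compared only as tag counts.

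A level of 5 CPM in neuron-like cells was reached by 21 of the 48 subunits in at least 1 library and by 15 in both. None of the 8 metabotropic glutamate receptors reached it in the neurons as a whole. Gabra6, a cerebellar GABA-A subunit, had no UMI in either library, and 3 subunits had fewer than 3 UMIs in both. The remaining low members included Gabrd, the Gabrr genes of retinal receptors, Glra3, Glra4 and Grin3b, each with at most 17 UMIs in the neuron-like cells of either library.

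**Figure D1:**
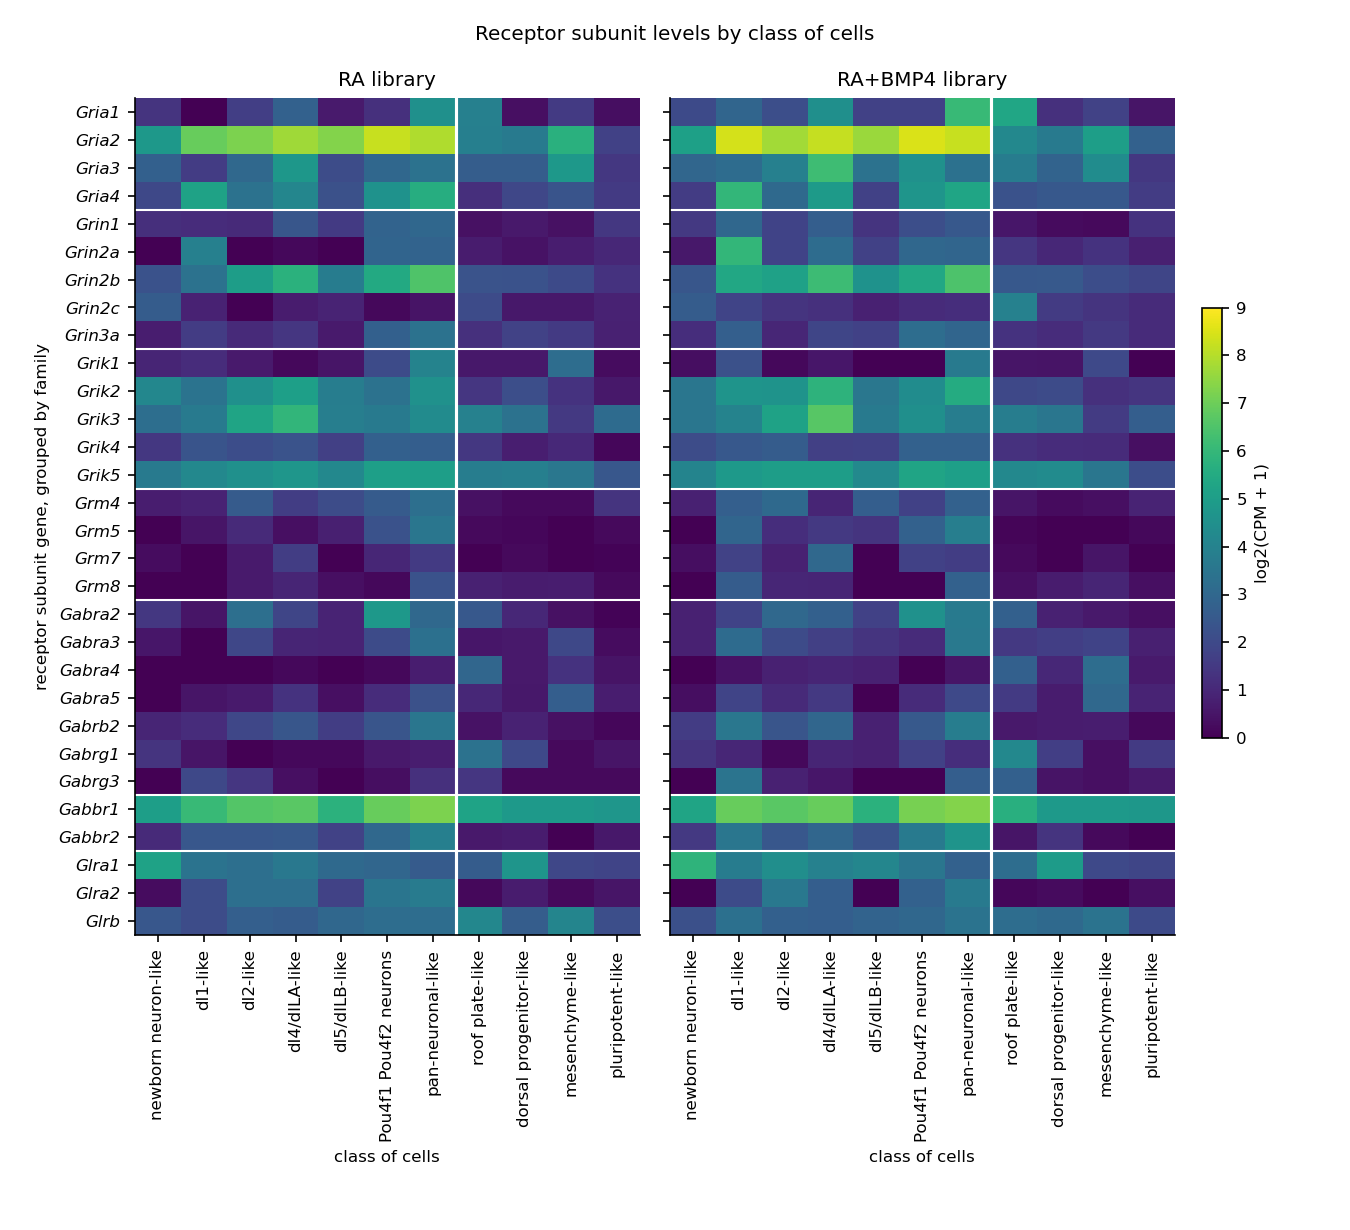
Level of each of 30 subunits that reached 5 CPM in at least 1 of 11 cell classes in either library, as log2(CPM + 1), with RA in the left panel and RA+BMP4 in the right. Rows are genes ordered by receptor family and columns are cell classes. Gria2 and Gabbr1 fill the neuron columns in both panels, while Gabrg1 is highest in the roof plate column of both.

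Many subunits were higher in neuron-like cells than elsewhere. By a rule of at least 5 CPM and at least 2-fold in both libraries, 10 of the 15 subunits tested were higher in neuron-like cells than in all other kept cells, where 14.2% of all genes tested were, and 0 were lower, where 16% of all genes were. Gria2 was at 196 CPM in RA neuron-like cells against 16.8 CPM in the other cells, 11.7-fold (11.0 to 12.4), and at 270 against 20.5 CPM in RA+BMP4, 13.2-fold (12.5 to 14). Grin2b, Gria4, Grik2, Grik3, Glra2, Gabbr1 and Gabbr2 were also among the 10. Of the GABA-B pair, Gabbr2 was the more neuronal, at 6.23 against 0.505 CPM in RA and 8.89 against 0.470 CPM in RA+BMP4. Gabbr1 exceeded the other cells only 3.23-fold and 2.77-fold.

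Detection in single cells was limited. With each cell thinned to 5000 UMIs, a UMI of at least 1 AMPA subunit was found in 60.3% (58.5 to 62.1) of neuron-like cells in RA, with 66.3% (64.6 to 67.9) in RA+BMP4. The same share was 30.8% and 20.9% in mesenchyme-like cells, a class without synapses that was deeper before thinning (median 25021 and 15764 UMIs, against 12471 and 9526). Gria2 alone was found in 55.1% and 59.5% of neuron-like cells against 18% and 11.9% of mesenchyme-like cells, and without thinning in 75.7% and 72.9% against 43.6% and 25.7%. Grin1, without which no NMDA receptor forms, was found in 2.45% and 2.32% of thinned neuron-like cells, against 0.467% and 0% of mesenchyme-like cells (3 cells would be 0.701% and 0.330%). Levels of Grin1 ran from 1.11 to 7.12 CPM over the 7 subtypes and 2 libraries. A cell with UMIs of both Grin1 and a GluN2 subunit was rare, at 0.561% in RA (0.321 to 0.909) and 0.885% in RA+BMP4 (0.593 to 1.27).

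Complete GABA-A sets were rarer still. A transcript of a β subunit was found in 26.7% of RA and 28.6% of RA+BMP4 neuron-like cells, but mesenchyme-like cells had 13.3% and 13.7%. For α subunits the shares were 4.94% and 6.16%, against 5.84% and 8.35% of mesenchyme-like cells, which held Gabra4 and Gabra5, and 1.10% and 1.82% of dorsal progenitor-like cells. A γ subunit was found in 5.82% and 6.71% of neuron-like cells and in 0% and 0.549% of mesenchyme-like cells. It was not limited to neurons. With thinning to 3000 UMIs, 3.72% and 3.85% of neuron-like cells had a γ subunit, against 3.47% and 7.34% of roof plate-like cells. All of α, β and γ were found together in 6 of the 2853 neuron-like cells of RA (0.210%, 0.0772 to 0.457) and in 14 of the 3277 of RA+BMP4 (0.427%, 0.234 to 0.716). The ratio of these shares was 2.03 with an interval of 0.782 to 5.28, so a difference was not detectable at this depth. Without thinning the shares were 1.70% and 1.35%. In roof plate-like cells, which were deeper (median 17631 and 10669 UMIs), the unthinned shares with all of α, β and γ were 2.31% and 1.53%.

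The neuron subtypes differed in which subunits they carried. At 5 CPM and 2-fold in both libraries, 14 of the 25 subunits tested were enriched in at least 1 subtype over all other neuron-like cells, where 11.4% of all genes were. Likewise 14 of 25 were lower in at least 1 subtype, where 16.5% of all genes were. The other neuron-like cells include every other subtype, so 1 subtype with a high level can make a subunit lower in several others. Gria1 was such a case, highest in pan-neuronal-like neurons. No subunit was enriched in dI2-like or dI5/dILB-like neurons, where 0.857% and 0.531% of all genes were. The 2 libraries are 2 views of the same pattern and not replicates.

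The levels of all 4 AMPA subunits varied over the subtypes. Gria2 ran from 26.6 CPM in RA newborn neurons (33.6 in RA+BMP4) through dI1-like (120 and 340), dI2-like (150 and 214), dI5/dILB-like (161 and 200), dI4/dILA-like (212 and 296) and pan-neuronal-like neurons (244 and 304) to 304 CPM in Pou4f1 Pou4f2 neurons (356 in RA+BMP4). In RA the intervals of neighbours in that order overlapped between dI1-like and dI2-like neurons and between dI2-like and dI5/dILB-like neurons. In RA+BMP4 the dI1-like neurons stood next to the Pou4f1 Pou4f2 neurons at the top, with overlapping intervals (331 to 349 and 317 to 399 CPM). Newborn neurons were at the bottom in both libraries, at 26.6 against 219 CPM in the other neurons of RA and 33.6 against 301 CPM in RA+BMP4.

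Gria3 was the AMPA subunit enriched in the dI4/dILA-like neurons, an inhibitory class and the one highest in Slc32a1, at 174 and 228 CPM. In these neurons 3 of 25 subunits were enriched, where 1.34% of all genes were, and 0 were lower, where 2.08% were. Gria3 was at 25.8 CPM there in RA against 6.25 CPM in other neurons (4.14-fold, 3.35 to 5.11) and at 72.0 against 9.70 CPM in RA+BMP4 (7.42-fold, 6.09 to 9.01). A Gria3 UMI was found in 8.82% and 25.9% of thinned dI4/dILA-like neurons, in 11.7% and 7.69% of mesenchyme-like cells, where its level was 26.6 and 19.7 CPM, and in 2.70% and 4.43% of dorsal progenitor-like cells. Gria1 was highest in pan-neuronal-like neurons, at 21.7 against 2.18 CPM in RA (9.93-fold, 7.42 to 13.4) and 66.1 against 6.35 CPM in RA+BMP4 (10.4-fold, 8.39 to 12.9). A Gria1 UMI was found in 10.1% and 24.7% of the thinned cells of that group, against 0.701% and 0.769% of mesenchyme-like cells. The dI2-like neurons were low in 2 of 25 subunits, where 2.3% of all genes were: Gria1 and Gria4. The Gria1 call needed the pan-neuronal-like group in the reference, as RA neurons outside that group had 2.18 CPM. In dI2-like neurons Gria4 was at 9.43 against 21.9 CPM in RA and 7.37 against 44.4 CPM in RA+BMP4. It was also low in dI5/dILB-like neurons, at 3.71 against 25.3 CPM in RA and 2.36 against 38.8 CPM in RA+BMP4.

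As a share of all AMPA subunit UMIs, Gria2 dominated every neuron subtype. Its share was highest in dI5/dILB-like neurons, at 95.5% in RA (94.2 to 96.6) and 93.4% in RA+BMP4 (89.8 to 96.0). It was lowest in newborn neurons in RA, at 72.3%, and in dI4/dILA-like neurons in RA+BMP4, at 70.8% (67.7 to 73.7), where Gria3 took 17.2% (14.8 to 19.8).

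Among kainate subunits, Grik3 marked the dI4/dILA-like neurons, and Grik2 was enriched there less sharply. Grik3 was at 59.3 against 15.1 CPM in RA (3.93-fold, 3.43 to 4.50) and at 99.8 against 18.6 CPM in RA+BMP4 (5.36-fold, 4.57 to 6.26). With thinning, 25.9% and 39.4% of these cells had a Grik3 UMI, against 0.701% and 0.659% of mesenchyme-like cells. Grik2 was at 32.8 against 15.5 CPM in RA and 55.3 against 23.4 CPM in RA+BMP4. Pan-neuronal-like neurons came near it, at 22.7 and 45.9 CPM of Grik2, and its enrichment was lost at clustering resolution 0.5. Grik1 belonged to pan-neuronal-like neurons instead, at 15.2 against 1.17 CPM in RA and 12.2 against 2.06 CPM in RA+BMP4. Grik5, a subunit that works only in company with Grik1, Grik2 or Grik3, ran from 12.2 to 37.5 CPM over the 7 subtypes and both libraries.

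**Figure D2:**
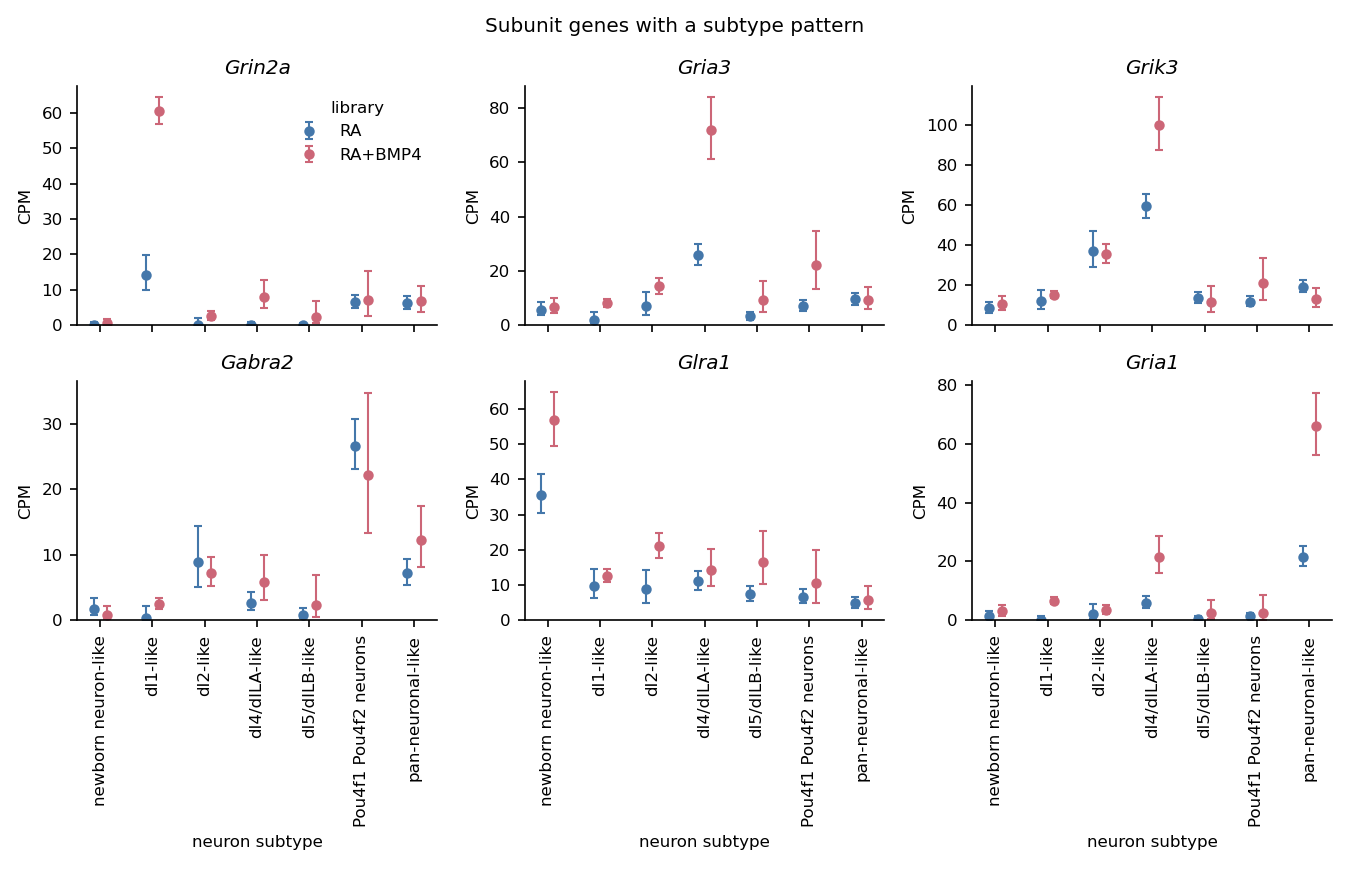
Level in CPM, with exact Poisson 95% intervals, of Grin2a, Gria3, Grik3, Gabra2, Glra1 and Gria1 in the 7 neuron subtypes, RA and RA+BMP4 side by side. The highest group in each panel is the same in both libraries: dI1-like for Grin2a, dI4/dILA-like for Gria3 and Grik3, Pou4f1 Pou4f2 neurons for Gabra2 (where the RA+BMP4 interval is wide), newborn neurons for Glra1 and pan-neuronal-like neurons for Gria1.

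Of the NMDA receptor subunits, Grin2a was the one that set the dI1-like neurons apart. It was the 1 of 25 subunits enriched there, where 0.81% of all genes were, while Gabra2, Glra2, Gria1 and Gria3 were lower there, 4 of 25 where 1.34% of all genes were. In RA, Gabra2 was under 5 CPM in neurons outside the Pou4f1 Pou4f2 group, as was Gria1 outside the pan-neuronal-like group. These 2 calls as lower therefore rest on those groups being in the reference. In dI1-like neurons Grin2a was at 14.3 CPM against 2.78 CPM in other RA neurons (5.13-fold, 3.39 to 7.62) and at 60.5 against 3.58 CPM in RA+BMP4 (16.9-fold, 13 to 22.2). Thinned dI1-like cells had a Grin2a UMI in 4.68% of RA and 19.3% of RA+BMP4 cells, against 0.234% and 0.769% of mesenchyme-like cells. Next in order were the Pou4f1 Pou4f2 neurons (6.50 and 7.03 CPM) and the pan-neuronal-like neurons (6.21 and 6.74 CPM), whose intervals overlapped. In RA, Grin2a had 0 UMIs in newborn, dI2-like and dI5/dILB-like neurons, where 3 UMIs would have been 0.664, 1.66 and 0.428 CPM. Of all GluN2 UMIs in dI1-like neurons, Grin2a made up 53.0% in RA (40.3 to 65.4) and 56.7% in RA+BMP4 (54.4 to 59.0).

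Grin2b was the main GluN2 subunit in the other groups apart from newborn neurons. It was enriched in pan-neuronal-like neurons, at 91.9 against 28.8 CPM in RA and 89.7 against 36.9 CPM in RA+BMP4, and low in newborn neurons, at 3.77 and 4.33 CPM. Grin2b made up 95.9% and 86.4% of GluN2 UMIs in dI4/dILA-like neurons. In newborn neurons the leading GluN2 subunit was Grin2c, with 23 of 42 UMIs in RA (54.8%, 38.7 to 70.2) and 20 of 40 in RA+BMP4. Its level there was 5.09 against 0.482 CPM in RA and 5.10 against 2.04 CPM in RA+BMP4, and 5 of 10 analyses with other settings kept it enriched.

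Metabotropic glutamate receptors were scarce. Grm5, a group I receptor that couples to phospholipase C, was the only one enriched in a subtype, at 10.5 against 1.27 CPM in pan-neuronal-like neurons of RA and 13.5 against 4.13 CPM in RA+BMP4. Grm4, a group III receptor, was at 8.74 and 5.90 CPM in the same group and at 4.99 and 7.37 CPM in dI2-like neurons.

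Gabra2, an α subunit common in the immature spinal cord, marked the Pou4f1 Pou4f2 neurons. It was the 1 of 25 enriched there, where 0.568% of all genes were, and Gria1 was the 1 of 25 lower, where 2.45% were. The Gria1 call needed the pan-neuronal-like group in the reference, since Gria1 was under 5 CPM in RA neurons outside that group. Gria1 was also lower in dI1-like, dI2-like, dI5/dILB-like and newborn neurons. In Pou4f1 Pou4f2 neurons Gabra2 was at 26.7 against 3.50 CPM in RA (7.64-fold, 6 to 9.76; 197 UMIs) and at 22.3 against 4.12 CPM in RA+BMP4 (5.41-fold, 3.16 to 8.77; 19 UMIs). Among the α subunit UMIs of these neurons it made up 85.3% (80.0 to 89.6) and 90.5% (69.6 to 98.8). A Gabra2 UMI was found in 8.49% and 8.64% of thinned cells, against 0% and 0.110% of mesenchyme-like cells. Gabra3, another α subunit, was enriched in pan-neuronal-like neurons instead, at 9.12 against 1.41 CPM in RA and 11.4 against 5.24 CPM in RA+BMP4.

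In dI5/dILB-like neurons 6 of the 25 subunits were lower than in other neurons, where 3.67% of all genes were, among them Gabbr2, Gabrb2, Glra2, Gria1 and Gria4. For Gria1 the other RA neurons reached 5 CPM only through the pan-neuronal-like group. Gabbr2 was highest in pan-neuronal-like neurons, at 13.8 against 4.23 CPM in RA and 24 against 7.75 CPM in RA+BMP4.

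The glycine receptor α subunits divided between the neuron groups. Glra1, the α subunit of the adult receptor that is mutated in startle disease, was highest in newborn neurons, at 35.7 against 7.68 CPM in RA (4.64-fold, 3.79 to 5.68) and 56.8 against 14.1 CPM in RA+BMP4 (4.02-fold, 3.41 to 4.74). It made up 161 of 162 glycine α UMIs there in RA and 223 of 223 in RA+BMP4. A Glra1 UMI was found in 16.2% and 24.1% of thinned newborn neurons, against 0.935% and 1.65% of mesenchyme-like cells. Outside the neurons, Glra1 was the 1 subunit of 12 tested that was higher in dorsal progenitor-like cells than in all other cells, where 2.43% of all genes were: 25.1 against 6.65 CPM in RA and 29.7 against 10.5 CPM in RA+BMP4. Glra2, the α subunit best known from the embryonic cord, was enriched in pan-neuronal-like neurons at 12.3 against 5.90 CPM in RA and 11.8 against 4.54 CPM in RA+BMP4, and made up 67.8% and 66.7% of their glycine α UMIs. Glrb, the partner that anchors the receptor, stayed between 3.26 and 9.68 CPM over the subtypes.

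Across subtypes, newborn neurons were low in 12 of the 25 subunits tested, where 10.9% of all genes were, and high in 2, where 4.77% were. Pan-neuronal-like neurons were high in 7 of 25, where 3.12% of all genes were, and low in 1, Glra1, where 3.01% were. None of these 7 stayed enriched in that group when subtypes were read from marker UMIs in each cell. The 12 included Gria2, Gria4, Grin2b, Grik3, Gabbr1 and Gabbr2. Stmn2, a gene of growing axons, was at 210 and 170 CPM in newborn neurons and at 2841 and 2753 CPM in pan-neuronal-like neurons, and the part of maturation in these differences was not tested.

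Between the libraries, the neuron-like cells differed in Grin2a and Gabrg3. At 5 CPM in 1 library and 2-fold, these were the only 2 of 21 subunits higher in RA+BMP4 neurons, where 2.27% of all genes were, and 0 were lower, where 0.724% were. Grin2a was at 3.53 in RA and 31.9 CPM in RA+BMP4 (133 and 1081 UMIs), 9.05-fold (7.55 to 10.9). Gabrg3, a less common γ subunit, was at 0.663 and 5.61 CPM (25 and 190 UMIs), 8.46-fold (5.56 to 13.4). The median log2 ratio of the 21 subunits was 0.46, against 0.07 over all genes tested.

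The RA+BMP4 neurons held a larger part of dI1-like cells, 1762 of 3418 against 172 of 2878, and both ratios were recomputed with other mixtures. Without dI1-like and dI2-like cells together, the log2 ratio of Grin2a was 0.53 and that of Gabrg3 was 1.55, from 3.18 and 3.08, and neither was then called. Grin2a was then under 2-fold, while Gabrg3 was still over 2-fold and missed only the minimum of 5 CPM. With each subtype given the same weight in both libraries the log2 ratios were 1.69 and 1.38. Grin2a was still called, while Gabrg3, again over 2-fold, was not. In RA+BMP4 neurons Grin2a made up 41.7% of GluN2 UMIs (39.8 to 43.7) against 7.36% in RA (6.20 to 8.67).

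**Figure D3:**
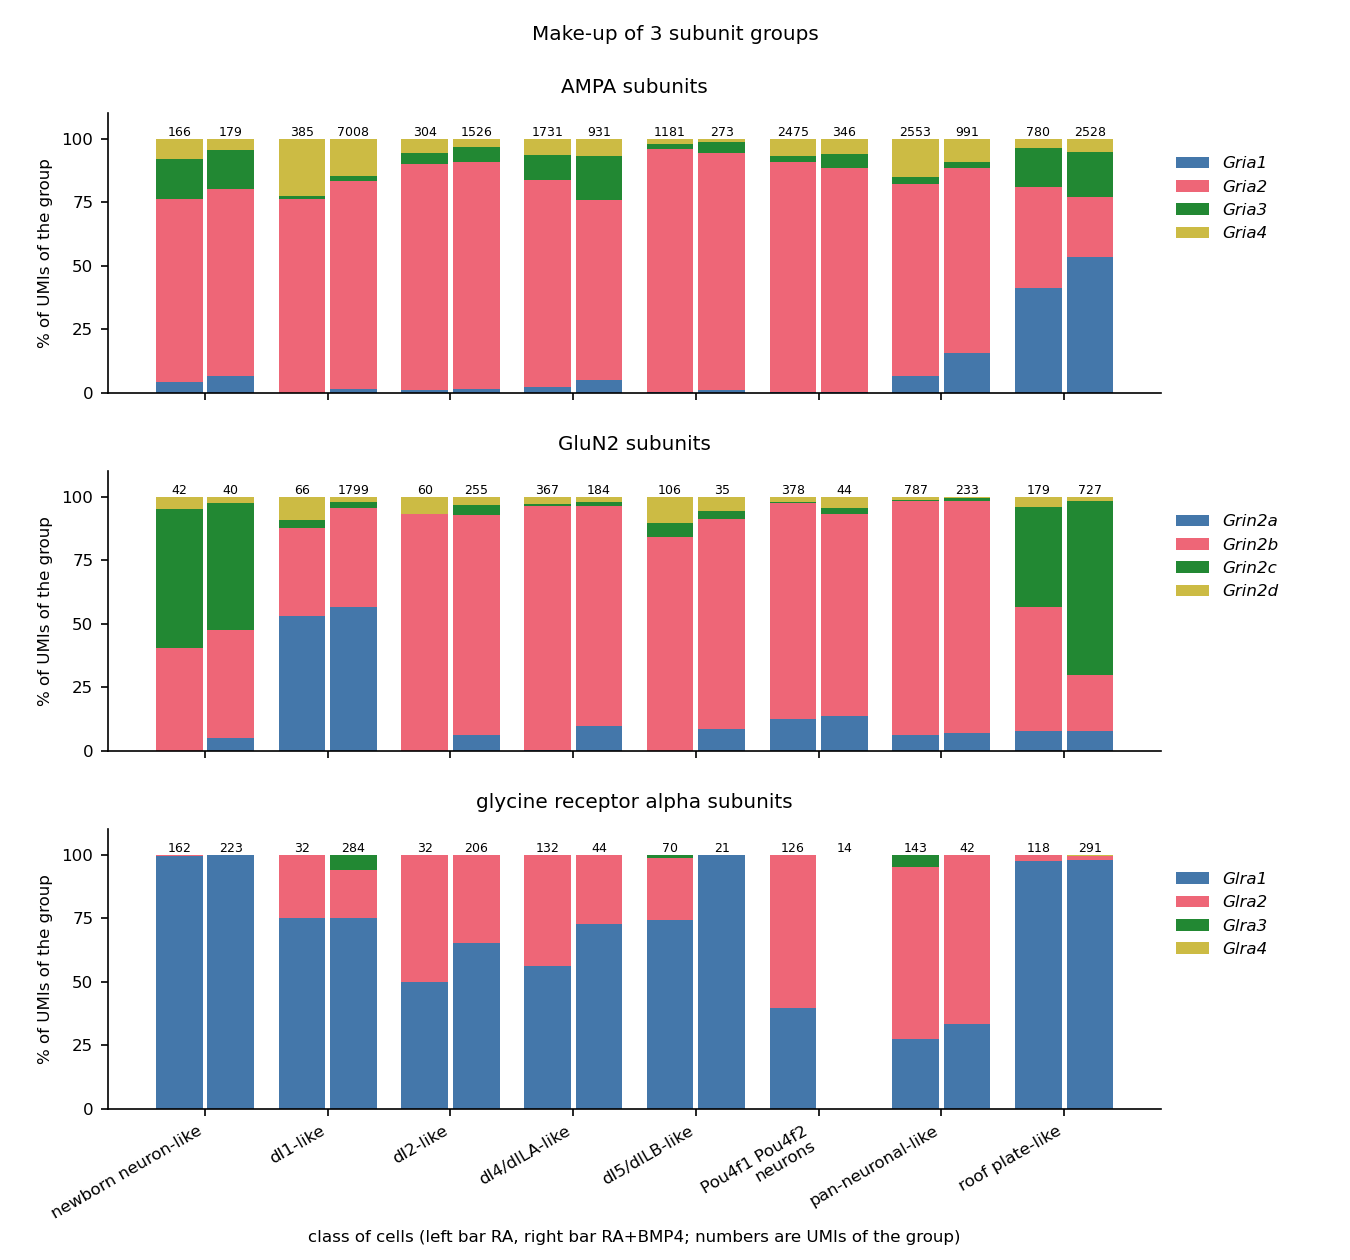
Share of UMIs in percent held by each subunit of the AMPA, GluN2 and glycine receptor α sets, in the 7 neuron subtypes and roof plate-like cells, with RA in the left bar of each pair and RA+BMP4 in the right (bars with fewer than 20 UMIs are left out). Gria2 fills most of each AMPA bar of the neurons and Gria1 the largest part in roof plate-like cells of RA+BMP4 (53.6%), Grin2a fills over 50% of the dI1-like GluN2 bars, and Glra1 fills the glycine bars of newborn neurons in both libraries but for 1 UMI.

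Within dI1-like neurons, 17 of 23 subunits were higher in RA+BMP4, where 8.09% of all genes were, and 0 were lower, where 1.93% were. The median log2 ratio was 1.83 against 0.16 over all genes. Gria2 was at 120 and 340 CPM (2.83-fold, 2.52 to 3.20), Grin2a at 14.3 and 60.5 CPM (4.24-fold, 3.03 to 6.12), and Grin2b at 9.38 and 41.6 CPM (4.44-fold, 2.93 to 7.04). Gria1 and Gabra3 had 0 UMIs in the RA dI1-like cells and 113 and 134 in RA+BMP4, at least 5.48-fold and 6.50-fold higher by the 3-count limit of that group. Grin1 had 3 UMIs in RA, and its ratio of 5.82 carried a counting interval of 1.94 to 28.6.

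The 3 clusters that made up the dI1-like class were mixed differently in the libraries. Cluster 16, led by the progenitor gene Atoh1, gave 80 of the 172 cells in RA and 273 of the 1762 in RA+BMP4. Cluster 13, led by Lhx2, gave 61 and 488, and cluster 1, led by Sorcs3, gave 31 and 1001. All subunits together were at 168 and 213 CPM in cluster 16, at 450 and 681 CPM in cluster 13 and at 853 and 1252 CPM in cluster 1. Taken alone, cluster 13 had 6 of 16 subunits higher in RA+BMP4, where 7.32% of all genes were, and 0 lower, where 2.2% were. Cluster 16 had 3 of 9 higher, where 6.31% of all genes were, and 0 lower, where 1.95% were.

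Grin2a, which was not used for clustering, was nearly limited to clusters 13 and 1. It had 0 and 1 UMI in cluster 16, was at 16.6 and 90.5 CPM in cluster 13 (14 and 445 UMIs; 5.46-fold, 3.22 to 10.1), and at 54.6 and 64.2 CPM in cluster 1 (21 and 574 UMIs). Gria4 ran the other way in RA, where it made up 65.9% of AMPA UMIs in cluster 16 (54.8 to 75.8) and 8.93% in cluster 13. In RA+BMP4 it made up 55.7% in cluster 16 and 25.2% in cluster 13, and its level in cluster 13 was 73.8 CPM against 17.8 CPM in RA (4.15-fold, 2.49 to 7.50). Gabrg3 was nearly limited to cluster 1, at 18.2 and 18.1 CPM (7 and 162 UMIs), with 0 and 8 UMIs in cluster 13. Gabra3 in cluster 1 had 0 UMIs in RA and was at 14 CPM in RA+BMP4.

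**Figure D4:**
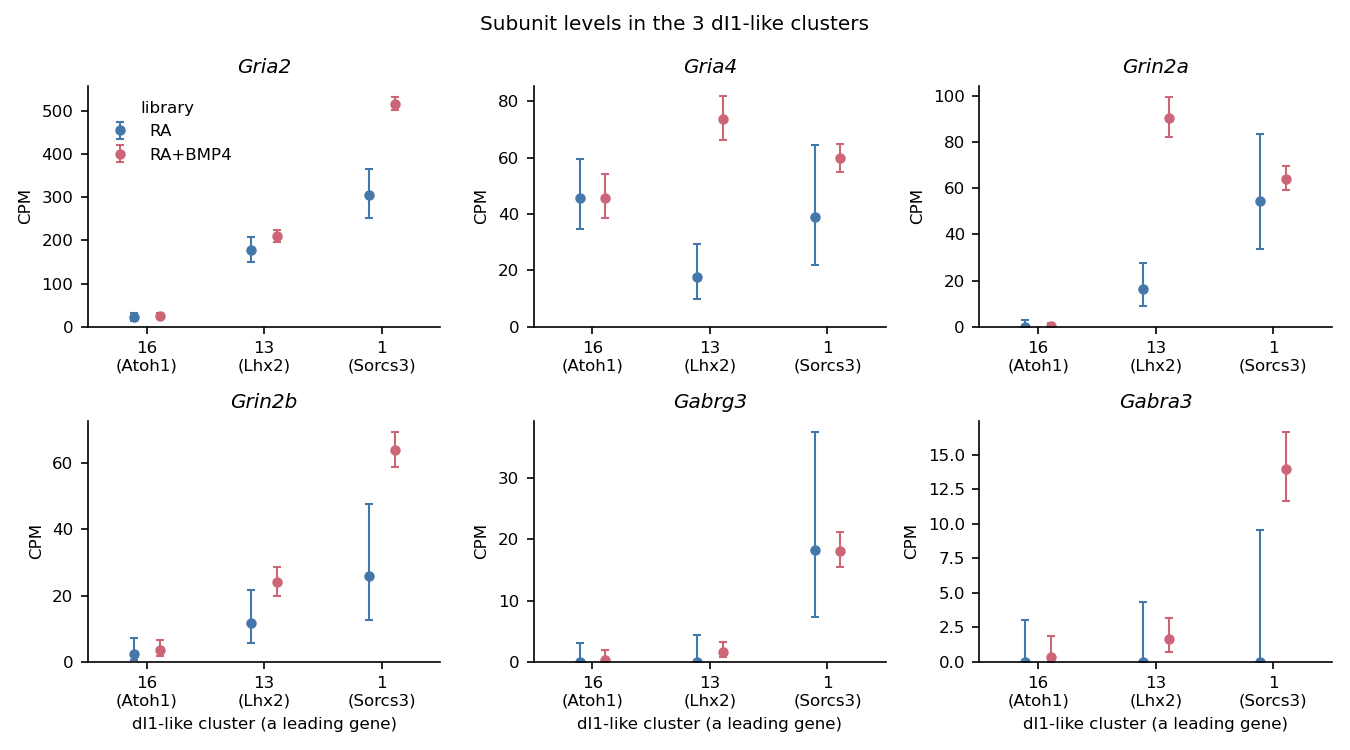
Level in CPM, with exact Poisson 95% intervals, of Gria2, Gria4, Grin2a, Grin2b, Gabrg3 and Gabra3 in the 3 dI1-like clusters, RA and RA+BMP4 side by side. Gria2 is higher in cluster 1 than in cluster 13 and higher there than in cluster 16 in both libraries, and the Grin2a intervals of the libraries do not touch in cluster 13.

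In the other subtypes fewer subunits were called. Gria3 was the one called most often, in dI4/dILA-like neurons (25.8 and 72.0 CPM; 2.78-fold, 2.23 to 3.47), Pou4f1 Pou4f2 neurons (7.04 and 22.3 CPM; 3.16-fold, 1.77 to 5.44) and dI5/dILB-like neurons (3.28 and 9.43 CPM; 2.87-fold, 1.30 to 6.01). In dI4/dILA-like neurons 5 of 20 subunits were higher in RA+BMP4, where 2.94% of all genes were, and 0 were lower, where 1.1% were. Gria1 was at 6.01 and 21.6 CPM (3.59-fold, 2.31 to 5.61) and Grm7, a presynaptic group III receptor, at 2.10 and 7.20 CPM (3.42-fold, 1.56 to 7.57). Gabra2 was at 2.70 and 5.85 CPM with an interval that included equality (0.974 to 4.67). Grin2a had 1 UMI in RA and 18 in RA+BMP4, a ratio of 53.9 with a counting interval of 8.51 to 2245 (18 when the 3-count limit replaces the 1 UMI).

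In dI5/dILB-like neurons 2 of 11 subunits were higher, where 5.11% of all genes were, and 0 lower, where 1.62% were. These were Gria3 and Glra1 (7.42 and 16.5 CPM; 2.22-fold, 1.27 to 3.76). Isl1 also differed between the libraries in this group (12.4 and 149 CPM), and its part in these calls was not tested. In dI2-like neurons Glra1 alone was higher of 16, where 3.08% of all genes were (0 lower, where 0.804% were), at 8.87 and 21.0 CPM (2.37-fold, 1.41 to 4.26). Newborn neurons had 0 of 9 called in either direction, where 2.51% of all genes were higher and 1.03% lower. Their Gria2 was at 26.6 and 33.6 CPM and their Grin2b at 3.77 and 4.33 CPM.

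Pan-neuronal-like neurons had 3 of 27 subunits higher in RA+BMP4, where 3% of all genes were, and 1 lower, where 1.2% were. Gria1 was at 21.7 and 66.1 CPM (3.05-fold, 2.44 to 3.81), Grik2 at 22.7 and 45.9 CPM (2.02-fold, 1.58 to 2.58) and Gabrg3 at 1.39 and 5.47 CPM (3.93-fold, 1.62 to 9.69). Among Pou4f1 Pou4f2 neurons, 2 of 21 were higher, where 4.52% of all genes were, and 1 was lower, where 2.13% were. The 2 were Gria3 and Grik2 (9.62 and 19.9 CPM; 2.07-fold, 1.14 to 3.55). Isl1 was at 8.4 in RA and 110 CPM in RA+BMP4 in this group as well, and its part was not tested.

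Roof plate-like cells, the dorsal midline cells that secrete BMP and Wnt signals, differed from the other cells in a few subunits. Of 14 subunits tested, 3 were higher there than in all other kept cells in both libraries, where 4.88% of all genes were, and 4 were lower, where 8.68% were. Gabrg1, a γ subunit of restricted distribution in the brain, was at 9.49 against 0.89 CPM in RA (10.7-fold, 8.18 to 14) and 17.6 against 0.946 CPM in RA+BMP4 (18.6-fold, 14.3 to 24.4). Gabra4 was at 6.77 against 0.485 CPM in RA (14-fold, 9.85 to 20.1) and at 5.79 against 2.44 CPM in RA+BMP4 (2.37-fold, 1.92 to 2.93). Gria1 was at 14.3 against 3.15 CPM in RA (4.53-fold, 3.84 to 5.34) and at 39.4 against 6.45 CPM in RA+BMP4 (6.11-fold, 5.48 to 6.82). These comparisons pool all other cells. Gria1 was higher still in pan-neuronal-like neurons in both libraries, and Gabra4 was higher in mesenchyme-like cells in RA+BMP4. The 4 lower subunits were Gria2, Gria4, Grik2 and Grin2b, all of them among the neuronal ones.

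A Gabrg1 UMI was found in 4.45% and 8.15% of thinned roof plate-like cells and in 0 of 428 and 0 of 910 mesenchyme-like cells. Gria1 was the leading AMPA subunit in RA+BMP4, at 53.6% of AMPA UMIs (51.6 to 55.6) against 23.6% for Gria2. In RA their shares were 41.2% (37.7 to 44.7) and 40.0% (36.5 to 43.5).

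On chromosome 5, the genes of 4 GABA-A subunits lie near each other in GRCm38, with 1 other protein-coding gene between Gabra2 and Gabra4: Gabrg1 at chr5:70751047-70842617, Gabra2 at chr5:70957597-71095849, Gabra4 at chr5:71569749-71658308 and Gabrb1 at chr5:71658113-72149037. Gabrg1, Gabra2 and Gabra4 are on the reverse strand. Gabra4 and Gabrb1 start head to head and overlap by 196 bp. In roof plate-like cells their levels were 9.49, 4.54, 6.77 and 3.38 CPM in RA and 17.6, 5.73, 5.79 and 4.45 CPM in RA+BMP4, in the order of their positions. Gabra2 is the neighbour that was highest in Pou4f1 Pou4f2 neurons (26.7 and 22.3 CPM), where Gabrg1 was at 0.542 and 2.34 CPM.

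The 250 bases before the start sites of Gabrg1 and Gabra2 are shown because these neighbours were highest in different cells. They are RefSeq promoters of GRCm38.p6 on the reverse strand, chr5:70842618-70842867 and chr5:71095850-71096099, printed 5′ to 3′, with capitals for the homeodomain-type motif TAATTA, which reads the same on both strands:
Gabrg1: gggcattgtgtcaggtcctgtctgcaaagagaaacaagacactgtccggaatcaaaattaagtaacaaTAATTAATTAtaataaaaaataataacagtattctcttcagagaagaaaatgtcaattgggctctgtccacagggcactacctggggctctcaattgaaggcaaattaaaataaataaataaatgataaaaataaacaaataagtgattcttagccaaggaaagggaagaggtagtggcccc
Gabra2: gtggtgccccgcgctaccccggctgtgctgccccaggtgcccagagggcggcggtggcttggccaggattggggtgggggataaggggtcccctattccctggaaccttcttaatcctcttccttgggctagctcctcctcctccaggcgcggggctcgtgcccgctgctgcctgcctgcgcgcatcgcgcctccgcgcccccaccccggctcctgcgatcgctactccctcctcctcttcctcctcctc

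The Gabrg1 window held 2 overlapping TAATTA matches and was 35.6% G or C, while the Gabra2 window held none and was 70.0% G or C. Of the 34 subunits with a RefSeq promoter entry, Gabrg1 was the only one with TAATTA, which 4.84% of all 32851 promoter windows held. The E-box CAGATG, searched on both strands, was in 3 of 34 windows and in 14.4% of all, and CAGCTG, its own reverse complement, in 1 of 34 and in 13% of all. These are matches of letters and not sites of binding.

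Between the libraries, roof plate-like cells had 4 of 14 subunits higher in RA+BMP4, where 2.45% of all genes were, and 1 lower, where 1.73% were. Gria1 was at 14.3 and 39.4 CPM (2.76-fold, 2.44 to 3.12), Gria3 at 5.26 and 12.9 CPM (2.45-fold, 2 to 3.03), Grin2c at 3.16 and 14.5 CPM (4.60-fold, 3.58 to 5.98) and Gabrg3 at 1.69 and 5.73 CPM (3.39-fold, 2.38 to 4.93). Glrb was lower, at 17.1 and 8.26 CPM (0.482-fold, 0.412 to 0.563). The class was built of different clusters in the libraries: cluster 0, with Pla2g7, Rspo3 and Wnt1 among its leading genes, gave 1771 of the 2869 RA+BMP4 cells and 176 of the 1038 RA cells.

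Within cluster 0 alone, 3 of 15 subunits were higher, where 3.07% of all genes were, and 0 were lower, where 0.631% were. These were Gria1 (24.9 and 54 CPM; 2.17-fold, 1.68 to 2.85), Gria3 (2.41 and 12 CPM; 5-fold, 2.26 to 13.8) and Gabrg3 (2.01 and 7.84 CPM; 3.91-fold, 1.64 to 12.2). Grin2c, at 12.8 and 22.9 CPM, and Glrb, at 9.23 and 6.44 CPM, were no longer called. Over all kept cells, 4 of 15 subunits were higher in RA+BMP4, where 1.5% of all genes were, and 0 were lower, where 1.41% were: Grin2a, Grin2c, Gria1 and Gabrg1. Gria1 and Gabrg1 came mostly from outside the neurons, at 5.02 and 21.1 CPM and at 3.80 and 9.37 CPM in the other cells.

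**Figure D5:**
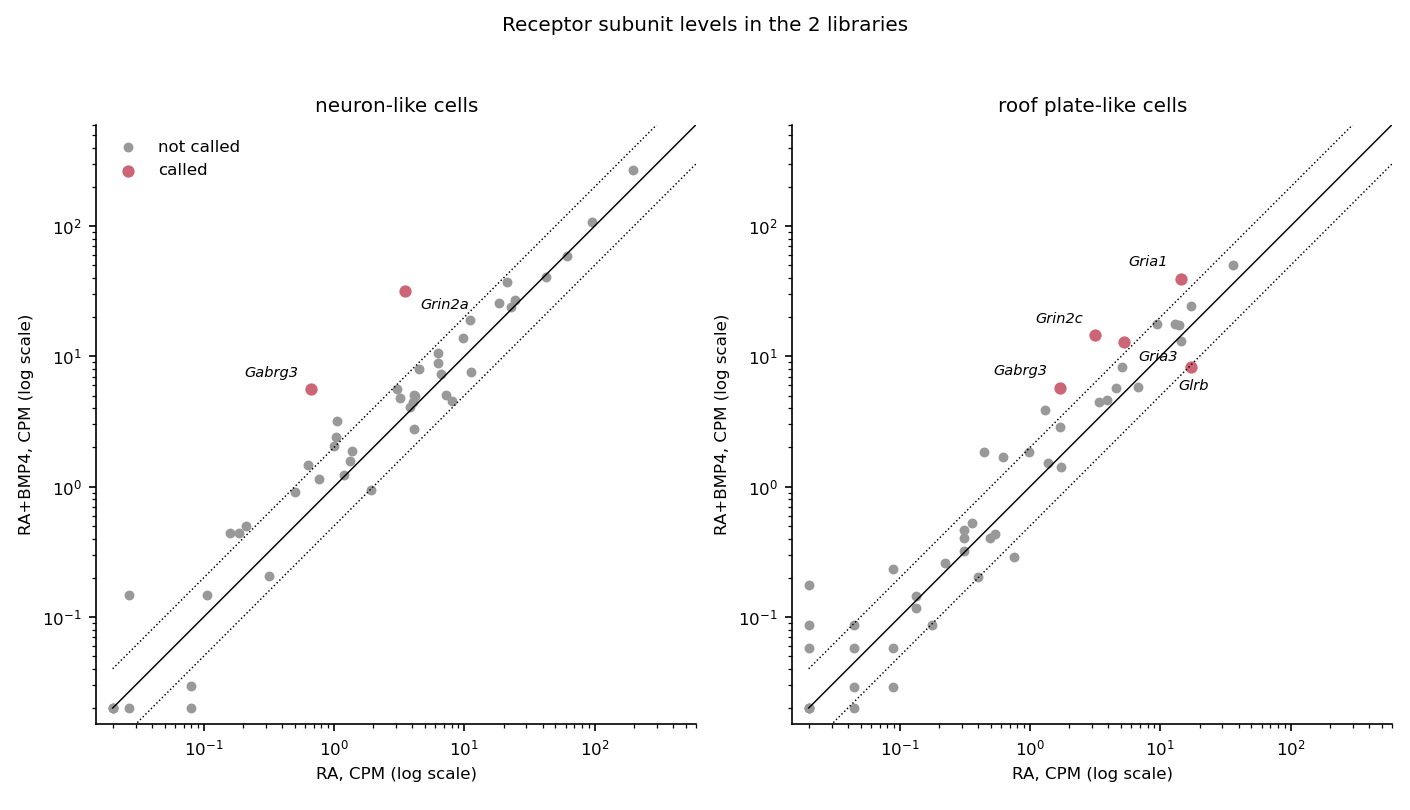
Level of each of the 48 subunits in RA (horizontal) and RA+BMP4 (vertical), in CPM on log axes, for neuron-like cells (left) and roof plate-like cells (right); the solid line marks equal levels, the dotted lines 2-fold, and values under 0.02 CPM are drawn at 0.02. Most points lie between the dotted lines, with the called subunits outside them: Grin2a and Gabrg3 above in neurons, and Grin2c, Gria1, Gria3 and Gabrg3 above and Glrb just below in roof plate-like cells.

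Few subunits were higher in the other classes than in all other cells. Mesenchyme-like cells were lower in 6 of 13 subunits tested, where 12.6% of all genes were. They were higher in Gabra5 alone, 1 of 13 and near the 5.87% of all genes, at 5.38 against 0.979 CPM in RA and 7.30 against 1.65 CPM in RA+BMP4. The Gabra5 gene overlaps another gene on the opposite strand, and whether the counting used strand is not given in the sources used here, so its level is uncertain. In the same cells Gabra4 was at 1.49 in RA and 8.31 CPM in RA+BMP4 (5.58-fold, 3.40 to 9.69) and Grik1 at 8.36 and 2.99 CPM (0.358-fold, 0.250 to 0.507), 1 of 9 subunits in each direction where 1.54% of all genes were higher and 1.56% lower. Pluripotent-like cells were lower than all others in 11 of 12 subunits, where 26.9% of all genes were, and higher in 0, where 11.6% were. Between the libraries, 1 of 3 subunits was higher in them in RA+BMP4, Gria2 (2.30 and 6.02 CPM), where 1.17% of all genes were higher and 0.436% lower. Dorsal progenitor-like cells were lower than all others in 7 of 12 subunits, where 9.74% of all genes were. Between the libraries they had 0 of 8 subunits called, where 1.93% of all genes were higher and 1.2% lower.

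The partner genes of the receptors were read by the same rule in neuron-like cells, where 2.27% of all genes were higher in RA+BMP4 and 0.724% lower. Of 18 listed auxiliary subunits and partners of AMPA and kainate receptors, 11 were tested and 0 were called. Of 21 excitatory scaffold genes, 20 were found, 16 were tested, 0 were higher and 1 was lower: Dlgap1, a postsynaptic density protein, at 30.2 and 13.2 CPM. None of 12 inhibitory scaffold and chloride transport genes was called, and these included Gphn, the glycine and GABA receptor anchor gephyrin (51.6 and 73.2 CPM), Slc12a5, the chloride exporter KCC2 (17.7 and 14.8 CPM), and Slc12a2, the importer NKCC1 (17.4 and 15.5 CPM). The median log2 ratios of the 3 lists were 0.07, 0.11 and 0.17, against 0.07 over all genes. Of 4 receptor genes that the choice by symbol left out, such as Gabre and Gabrp, 2 were tested and 0 were called.

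Over the neuron subtypes, 4 of 11 auxiliary genes tested, 5 of 18 excitatory scaffold genes and 2 of 12 inhibitory scaffold and chloride transport genes were enriched in at least 1 subtype, where 11.4% of all genes were. At least 1 subtype was low in 10, 8 and 5 of them, where 16.5% of all genes were. Newborn neurons were low in 9 of 11, 8 of 18 and 4 of 12, where 10.9% of all genes were. The examples that follow were chosen after their values were seen. Neto2, an auxiliary subunit of kainate receptors, was enriched in dI4/dILA-like neurons at 132 and 130 CPM, the group highest in Grik2 and Grik3. Gsg1l, an AMPA receptor partner, was enriched in dI1-like neurons at 79.1 and 34.5 CPM. It was at 114 and 104 CPM in cluster 16, 62.8 and 42.5 CPM in cluster 13 and 5.20 and 6.82 CPM in cluster 1, whose shares of the dI1-like cells differed between the libraries. Slc12a5 was enriched in pan-neuronal-like neurons at 53.2 and 49.3 CPM, the group highest in Gabra3, Gabbr2 and Glra2.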

How the data were processed

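Single cells of 1 RA and 1 RA+BMP4 culture, 9 days into differentiation of the MM13 line, were captured with a 10x Chromium 3′ v3 kit and sequenced on 1 lane, per the labels' protocols. The deposited values are raw UMI counts per gene and barcode, from which the authors' software wrote version 3.0.2 into the file headers. The submitters' processing notes name CASAVA, Cell Ranger 3.0.2 and GRCm38; no source used here gives the annotation release, the strand setting or how barcodes were called as cells. The files held 122110565 UMIs in 9704 RA barcodes and 115268932 in 13121 RA+BMP4 barcodes.

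Kept cells had 1000 genes or more and a mitochondrial UMI share of 10% or less, and scrublet (scanpy 1.11.5, expected rate 8%) removed 138 and 298 doublets (2.29% and 3.45%). Both libraries were clustered together without integration (3000 variable genes, 30 components, 20 neighbours, Leiden resolution 1, leidenalg 0.10.2), leaving out the subunits, lists and markers. A cluster was named where at least 3 markers of a class were in 10% of its cells at 1.5-fold, the name going to the class that had most of them in the top 10 genes by fold (5 CPM added). This way of naming was set with the clusters in view. Cluster 18 was shallow (median 4231 and 3553 UMIs) and stayed unnamed. UMIs were summed per library and class and scaled to CPM. A subunit was called at 5 CPM or more and 2-fold or more, with a 3-count floor under ratios for calls; beside 1 to 3 UMIs the ratio of the counts is printed. Intervals are exact: conditional binomial for ratios, Poisson for CPM, Clopper-Pearson for shares. Shares of cells used cells thinned to 5000 UMIs, leaving out shallower ones (2853 of 2878 RA and 3277 of 3418 RA+BMP4 neuron-like cells remained).

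The ratio, call and ratio interval steps were tested on simulated counts. Values are given for subunits at 5 CPM or more in neurons, in full for those called or enriched, and the others by range and count; a few subunits are counted but not reported here by name. The subunits, lists, markers and rules were chosen with earlier results of these data known. Alternatives covered filters, doublets, scaling, thresholds, clustering and thinning. Gene positions came from GENCODE vM21 and promoters from RefSeq, matched by symbol for 34 of 48. No test between conditions and no paired analysis was possible with 1 library per condition.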

Additional observations from a re-analysis of the deposited data

How the results depend on the processing

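No paired analysis was possible because each condition had 1 library. The 4 subunits higher over all kept cells became 0 at 20 CPM and 11 without a CPM minimum (8 higher, 3 lower). The 2 called in neuron-like cells became 1 at 20 CPM, 10 without a minimum, 8 at 1.5-fold, 4 with a stricter cell filter (2000 genes or more, mitochondrial UMIs 5% or less), 4 with neurons chosen by UMIs of at least 3 of 6 pan-neuronal genes (1 of them among the main 2), and, in an alternative chosen after seeing the data, 4 without dI1-like and dI2-like cells, none of them among the main 2. The 32 calls within subtypes became 10 at 20 CPM, 57 at 1.5-fold, 17 in the 4 subtypes left by the stricter cell filter, and 15 without dI1-like neurons, also chosen after seeing the data. At the main setting 2.51% to 8.09% of all genes were higher over the 7 subtypes, and 0.804% to 2.13% lower. No share over all genes is given for the alternatives, so their counts cannot tell subunits apart from genes in general. The 14 subunits enriched in a subtype became 9 with the stricter filter (4 subtypes), 7 at 20 CPM and 9 with subtypes read from marker UMIs in each cell, of which 9, 7 and 7 were among the 14. Gria3 and Grik3 in dI4/dILA-like, Glra1 in newborn and Gabra2 in Pou4f1 Pou4f2 neurons were enriched under every alternative that held the group (11, 11, 10 and 9), Glra2 and Gabra3 in pan-neuronal-like neurons under 6 and 7 of 11. All 7 subunits enriched in pan-neuronal-like neurons lost this with subtypes read from marker UMIs, where that group held 890 RA and 894 RA+BMP4 cells. Grin2b, Gabra3 and Glra2 lost it also with each library clustered alone. At 20 CPM it was lost by Gabbr2, Gabra3, Glra2, Grik1 and Grm5, and Grin2a was no longer enriched in dI1-like neurons. The ratio of shares of cells with a GABA-A α, β and γ set, 2.03, reversed to 0.845 at 3000 UMIs and to 0.790 without thinning, and under the stricter filter no RA cell had the set. The causes were not tested. Median-of-ratios scaling moved all neuron-like ratios by 0.10 (log2) and changed no call. Depth limits the low subunits most: in RA+BMP4 Pou4f1 Pou4f2 neurons 3 UMIs are 3.52 CPM.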
